A study of Drosophila melanogaster with 90 samples.

Results

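Beijing females, whole adult Drosophila melanogaster of 1 inbred line, were compared by the line of the male they had mated with. The comparison was chosen with earlier results of these data known. Its members were then taken by the labels alone: a female labelled Beijing and a male labelled Beijing, Ithaca, Netherlands, Tasmania or Zimbabwe. This gave 15 libraries of mated Beijing females in 5 crosses of 3 libraries, of 89 libraries in the whole series, which crossed 5 female lines with 5 male lines. All 5 are inbred lines of the Global Diversity Lines, founded from flies of different continents, and the submitters state that the line collected in Zimbabwe proved to descend from a recent migrant. Females and males were virgins aged 3 to 5 days, and each female mated once. Flies were frozen 5 to 6 h from the start of mating, and RNA of 5 to 10 whole females was pooled per library. Replicates came from flies of separate bottles. Crosses are written female x male, so that Beijing x Ithaca is a Beijing female mated with an Ithaca male. Unmated Beijing females of the same age, with 3 libraries, gave the background level. The 5 crosses share the female genotype, and each male line stands for its population by 1 inbred line only. The comparison asks whether a female's transcript levels depend on whose sperm and seminal fluid she received.

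In Drosophila, mating transfers sperm together with seminal fluid proteins made in the male accessory glands, ejaculatory duct and ejaculatory bulb. These proteins raise egg laying, lower receptivity and are known to alter transcript levels in the female reproductive tract, fat body and gut, with antimicrobial peptide genes among the best-known responders. Antimicrobial peptide genes are controlled by the Toll and Imd pathways and are made mainly by the fat body, and they also respond strongly to infection and wounding. RNA of whole females pools all tissues, so fewer cells of a type and less RNA per cell cannot be told apart. Mated females can also hold RNA from sperm or ejaculate, so transcripts of testis and accessory gland were followed as a separate group.

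The libraries held 6969673 to 38799730 counts, and 12045 genes passed the filter on low counts and entered the tests. Levels are given as CPM, the count of a gene relative to the scaled total of its library. They are not divided by gene length, so they compare libraries within a gene and not genes with each other. Several single libraries stood apart. The median correlation of a library with the other 14 was 0.9684 in Beijing x Ithaca replicate 2, 0.9735 in Beijing x Netherlands replicate 2 and 0.9817 in Beijing x Zimbabwe replicate 1, and 0.9862 to 0.9929 in the other 12. The slope of log expression on gene length, which moves with RNA quality and library preparation, was -0.416 in Beijing x Ithaca replicate 2 and -0.318 in Beijing x Netherlands replicate 2, and -0.104 to 0.138 in the other 13. Ithaca replicate 2 was the highest library for 80 of 91 cytosolic ribosomal protein genes, and for 23.3% of all genes. Median distance over all genes (root mean square of log2 differences) was 0.504 between libraries of the same male line (15 pairs) and 0.535 between those of different male lines (90 pairs). Without Ithaca replicates 1 and 2, Netherlands replicate 2 and Zimbabwe replicate 1 it was 0.472 within a male line (8 pairs) and 0.428 between male lines (47 pairs). The order of these medians thus turned when the 4 libraries were left out. The pairs within a male line then came mostly from Beijing and Tasmania males and none from Ithaca males, so the 2 medians cover different lines. Libraries of different male lines that carried the same replicate number were at 0.478 (30 pairs).

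Few genes were called between the 5 male lines. A joint test of any difference between them (edgeR's quasi-likelihood F test, Benjamini-Hochberg adjustment over all genes, called under 0.05) called 5 of 12045 genes, or 0.0415%. These were CG34136 (adjusted p = 4.92e-05), edin (0.000686), CG6614 (0.00819), CG14275 (0.0135) and CG33462 (0.0259). Of these, edin encodes a secreted peptide named for its rise during infection, and CG33462 a predicted serine protease. The joint test called 0 genes without Ithaca replicate 1, and 0 in a fit of the 18 Beijing libraries alone. With all libraries, 491 genes had an unadjusted p under 0.05 in edgeR. DESeq2's own joint test called 22 genes, among them CG34136, edin, CG6614 and CG14275 but not CG33462 (adjusted p = 0.167). The next 7 genes by p did not pass: CG16978 (adjusted p = 0.0541), CG18563, CG34411 and CG9759 (0.0781 each), CG31091 (0.0869), and CG10814 and CG9701 (0.089 each). Each male line was then set against the mean of the other 4, with adjustment over the 5 contrasts together. Ithaca males had 14 genes higher (0.116% of genes), Tasmania males 3 higher (0.0249%), Netherlands and Zimbabwe males 1 higher each (0.0083% each), and 0 genes were lower for any male line (0%). Beijing males, the females' own line, had 0 calls in edgeR, with 49 genes at an unadjusted p under 0.05 and 1 called by DESeq2.

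The 14 genes higher with Ithaca males included edin, Drs, IM23 and Tep2, which have known roles in immunity, beside genes with no role given here. In each of the 14 the highest of the 15 libraries was Beijing x Ithaca replicate 1. The gene edin stood at 351, 1.45 and 5.03 CPM in Ithaca replicates 1 to 3. It was at 0.206, 0.116 and 5.44 CPM with Beijing males, 0.310, 5.47 and 0.514 with Netherlands males, 0.627, 2.66 and 12.5 with Tasmania males, 0.653, 0.283 and 0.619 with Zimbabwe males, and 0.177 to 0.595 in virgins. Ithaca replicates 2 and 3 thus lay inside the range of the other crosses, and replicate 1 lay far above it. The fitted log2 difference was 6.09 ± 0.85 (adjusted p = 3.72e-05), and it was 0.89 ± 1.11 without that library (adjusted p = 0.922). Here and below, ± after a log2 difference or change is an SE worked back from the F of edgeR's test. That test takes its spread from all groups, so the SE is not the spread of the libraries of a cross. CG34136, a gene with no role given here, had 50.5, 7.75 and 3.12 CPM in the Ithaca replicates and 2.95 to 4.63 CPM in the 12 libraries of the other crosses. Replicate 2 also lay above the other 12, and replicate 3 lay among them. Its log2 difference was 2.41 ± 0.30 (adjusted p = 2.06e-06) and 0.50 ± 0.30 without replicate 1 (adjusted p = 0.857).

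In the other 12 called genes replicate 1 was again the highest library. Drs encodes the antifungal peptide drosomycin, a classical target of the Toll pathway. It was at 1690, 303 and 236 CPM with Ithaca males and at 106 to 335 CPM in the other 12 libraries (log2 difference 1.88 ± 0.36, adjusted p = 0.0149; 0.41 ± 0.41 without replicate 1). Tep2, a thioester-containing protein related to complement factors, was at 1170, 103 and 138 CPM against 91.3 to 172 CPM (1.85 ± 0.37, adjusted p = 0.0223), and its difference was -0.12 ± 0.42 without replicate 1. IM23, which encodes a short secreted immune-induced peptide of the Bomanin family, was at 226, 25.3 and 11.2 CPM against 4.24 to 16.9 CPM (3.10 ± 0.64). Replicate 2 of IM23 lay above the other 12 as well, and replicate 3 did not. CG33462 was at 18.6, 0.208 and 0.204 CPM against at most 0.13 CPM, with 0 reads in 8 of the 12 libraries, so the size of its fitted difference (7.64 ± 1.26) depends on the prior count. CG14275 was at 94.0, 29.9 and 17.7 CPM against 13.1 to 34.7 CPM (1.41 ± 0.24). The predicted serine protease genes CG18563 and CG5909 had 13.8 and 27.7 CPM in replicate 1, with 0 to 0.961 and 4.13 to 7.10 CPM in the other crosses. CG9701, a predicted glycosidase gene, had 121 CPM against 19.8 to 36.0. CG16978 had 86.4 CPM against 6.08 to 15.3, CG9759 had 23.0 against 1.19 to 6.41, CG10814 had 14.6 against 0.212 to 1.72, and CR43920 had 9.43 against 0 to 0.781. Over the 14 genes, Ithaca replicate 2 lay inside the range of the other crosses in 10 and replicate 3 in 12. Shares over all genes were not computed for these 2 counts. Without replicate 1, 0 of 12041 genes passed for Ithaca males and 0 in the joint test.

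**Figure D1:**
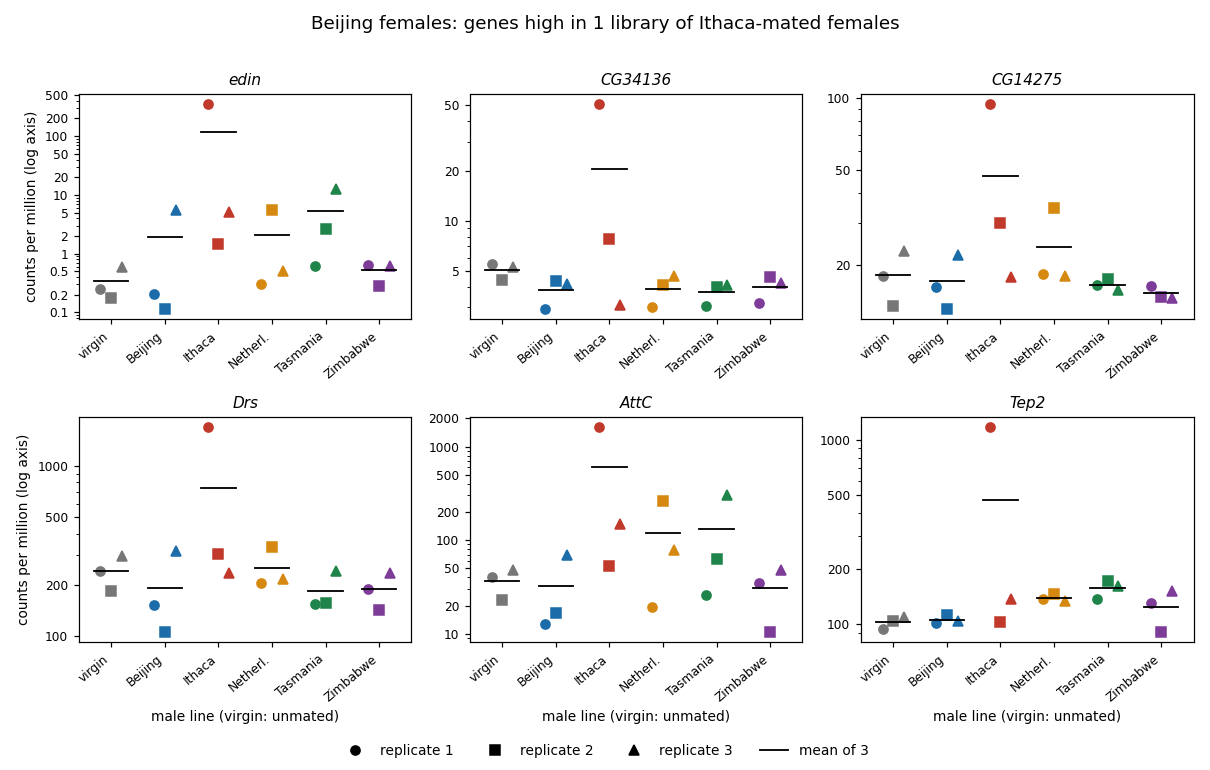
CPM (log axis) of 6 genes in each library of Beijing females, by male line; symbols mark the replicate and black lines the mean of 3 libraries. In each panel Ithaca replicate 1 is the highest point (351 CPM for edin, 1690 for Drs, 1170 for Tep2), and Ithaca replicates 2 and 3 lie near the other crosses.

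Most antimicrobial peptide genes were highest in this library. Of 25 tested, 2 passed as higher with Ithaca males (Drs and IM23), where 0.116% of all genes did, and 0 passed for any other male line. Without Zimbabwe replicate 1 and Netherlands replicate 2, AttC (adjusted p = 0.0464), IM1 (0.0464) and IM4 (0.0387) passed as well, which made 5. Without Netherlands replicate 2 alone, AttB, AttC, CecA2 and IM1 passed beside Drs and IM23. The median log2 difference of the 25 for Ithaca males was 2.13, beside -0.01 over all genes tested, and it was 0.56 without replicate 1, beside -0.02 over all genes. Replicate 1 was the highest of the 15 libraries for 22 of the 25, where it was the highest for 5.8% of all genes. Their summed level was 12400 CPM in that library and 590 to 3000 CPM in the other 14, and 847 to 1350 CPM in virgins. Among the genes that did not pass with all libraries, several Imd targets were also far above the other libraries there. Dpt, which encodes a diptericin, was at 1580 CPM against a median of 26.9 CPM in the other 14 libraries. AttC, an attacin gene, was at 1610 against 50.3 CPM (log2 difference for Ithaca males 3.26 ± 0.73, adjusted p = 0.0923). Dro, which encodes drosocin, was at 1290 against 27.1 CPM (3.40 ± 0.80, adjusted p = 0.16), and CecA1, a cecropin gene, at 39.5 against 0.934 CPM. The Toll-dependent genes IM1, a Bomanin, and IM4, a Daisho peptide, were at 741 against 67.4 CPM and 1610 against 256 CPM. Drsl2, Drsl4 and Drsl5, relatives of Drs, were not highest there; Drsl4 was at 30.1 CPM against a median of 32.4. AttA and AttB are almost the same in sequence, as are CecA1 and CecA2, and how the reads divide within each pair is uncertain. Of 46 genes of immune recognition and signalling, 0 passed, and CG13422, related to glucan-binding proteins, had the smallest p with 346 CPM in Ithaca replicate 1 and 15.6 to 59.6 CPM elsewhere. The 17 tested genes listed for hemocytes, the blood cells that also make immune proteins, summed to 3820 CPM in that library. The sum was 2870 to 4060 CPM over the 15, so that of the list was not at an extreme. Such a sum follows its most abundant members and is no count of hemocytes.

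The same genes also varied among libraries of the other crosses. AttC was at 304 CPM in Beijing x Tasmania replicate 3 and at 261 CPM in Beijing x Netherlands replicate 2, beside 148 CPM in Ithaca replicate 3. Dpt was at 227, 207 and 134 CPM in Tasmania replicate 3, Netherlands replicate 2 and Beijing x Beijing replicate 3, and at 1.76 and 2.70 CPM in Netherlands replicate 1 and Tasmania replicate 1. The ranges of the 5 crosses overlapped once Ithaca replicate 1 was set aside. Over the 15 libraries the genes closest to edin by rank were Mtk, which encodes metchnikowin (Spearman's rho 0.932), Dro (0.929), CecA1 (0.921), DptB (0.918) and AttC (0.893), a description over libraries of 1 female line that differ in depth and share crosses.

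Single libraries of other females reached similar levels. Among the 71 libraries outside Beijing females, edin had a median of 0.39 CPM and was at 319 CPM in Tasmania x Zimbabwe replicate 1, 86.8 CPM in its replicate 2 and 81.0 CPM in Tasmania x Tasmania replicate 1. Tep2 was at 1330 CPM in Tasmania x Tasmania replicate 1. Of the 14 genes called with Ithaca males, 8 were higher in Beijing x Ithaca replicate 1 than in all 71 other libraries. The 14 were called with that library in the contrast, and no share over all genes was computed for this count. CG34136, CG14275, CG9759 and CG9701 had their next highest level in a library of unmated Tasmania females (27.4, 57.2, 12.7 and 72.4 CPM). In females of the 4 other lines Ithaca males had no such difference on average. The log2 difference there was -0.09 ± 0.18 for CG34136, -0.57 ± 0.89 for edin, -0.32 ± 0.21 for Drs and -0.38 ± 0.21 for Tep2. Whether the male line effect in Beijing females differed from that in the 4 other female lines was tested for each gene (F test of 4 contrasts). Of 12045 genes, 1 passed (0.0083%), CG34136 (adjusted p = 0.00216); 196 genes had an unadjusted p under 0.05 and DESeq2 called 13. Without Ithaca replicate 1, 0 passed.

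The gene called with Zimbabwe males, CG6614, also went with 1 library. It stood at 5.71, 0.141 and 0 CPM in Zimbabwe replicates 1 to 3 and at 0 to 0.18 CPM in the 12 libraries of the other crosses. Its log2 difference was 5.85 ± 0.90 (adjusted p = 0.00057) and 1.18 ± 1.05 without Zimbabwe replicate 1 (adjusted p = 1). All 3 Netherlands libraries held 0 reads of it, so the fitted size depends on the prior count. In Zimbabwe replicate 1, 18 genes (0.149% of genes) were at least 4-fold above every other library of mated Beijing females after adding 0.5 CPM, of which 6 were in the testis list, 4 in the seminal fluid list and 2 in the ejaculatory duct and bulb list.

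Peb, which encodes a protein of the ejaculatory bulb, was at 11.7 CPM in Zimbabwe replicate 1 and at 0 to 0.752 CPM in the other 14 libraries. S-Lap1, a leucyl aminopeptidase of the sperm tail, was at 7.59 against at most 0.815 CPM, loopin-1, a related sperm protein gene, at 5.38 against at most 0.411 CPM, and Acp36DE, a seminal protein needed for sperm storage, at 6.04 against at most 0.698 CPM. Mst57Da and Spn77Bb, an accessory gland transcript and a serpin gene of the seminal fluid list, were both at 3.83 CPM. The sums that follow use the genes of each list that were under 1 CPM in every virgin library of the series, which keeps the virgin level low by construction. Summed over 54 seminal fluid genes, the level was 40 CPM there and 0.928 to 5.76 CPM in the other 14 libraries; over 33 testis and sperm genes it was 43.4 CPM and 0.955 to 3.96 CPM. Beijing virgins had 1.45 to 3.07 and 0.744 to 2.78 CPM. Over the tested genes of both lists without that filter, Zimbabwe replicate 1 was not the highest library: the seminal fluid list summed to 207 CPM there and 247 CPM in Netherlands replicate 2, and the testis list to 3040 CPM there and 4340 CPM in Ithaca replicate 2. In Zimbabwe replicate 1, 38 of the 54 and 28 of the 33 genes had at least 1 read. The median log2 difference for Zimbabwe males was 1.57 over 56 tested seminal fluid genes and 2.66 over 35 tested testis genes, beside 0.00 over all genes. It was -0.40 for both lists without Zimbabwe replicate 1 and Netherlands replicate 2, beside -0.03 over all genes. No gene of either list, nor of 9 tested genes of the ejaculatory duct and bulb, passed for any male line.

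**Figure D2:**
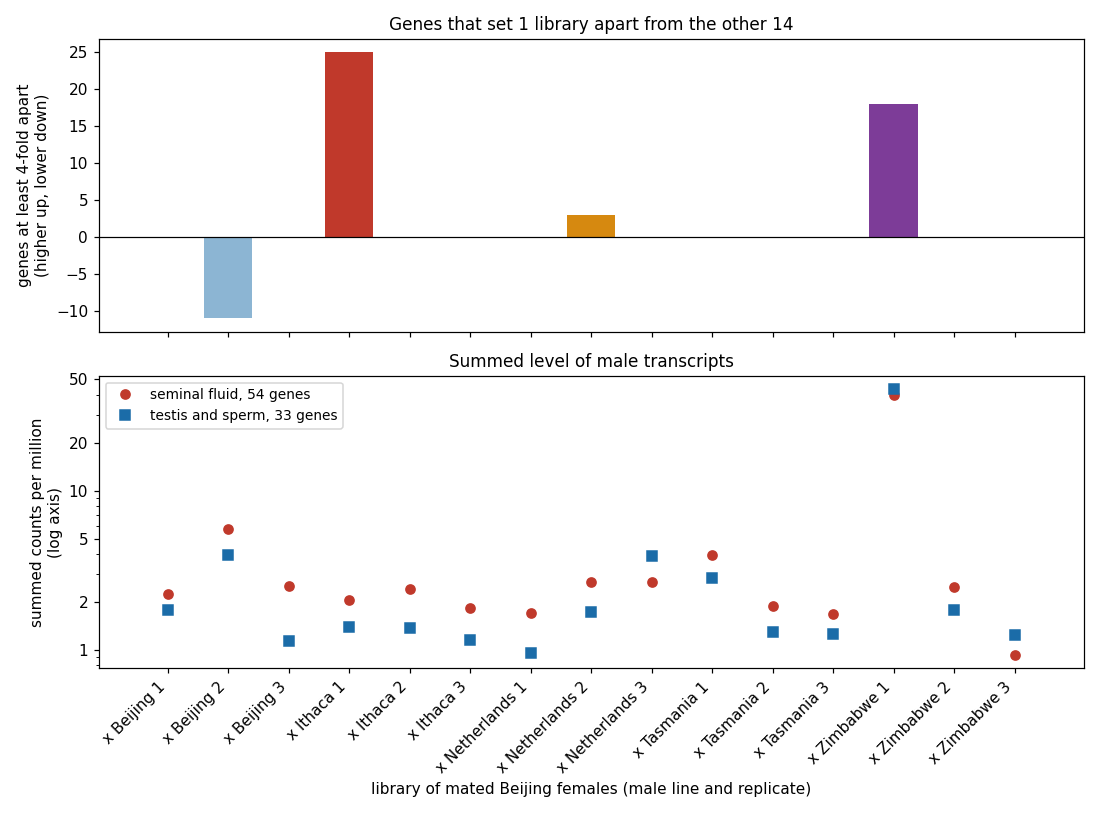
Above, the number of genes at least 4-fold above (up) or below (down) all 14 other libraries of mated Beijing females, after adding 0.5 CPM; below, summed CPM (log axis) of 54 seminal fluid and 33 testis genes. Ithaca replicate 1 had 25 such genes, Zimbabwe replicate 1 had 18, Netherlands replicate 2 had 3 and Beijing replicate 2 had 11 lower; the male transcripts were at 40 and 43.4 CPM in Zimbabwe replicate 1.

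With Netherlands males the single called gene, CG32718, had 0.103, 12.0 and 0.206 CPM, against 0 to 1.07 CPM in the other 12 libraries (log2 difference 3.76 ± 0.80, adjusted p = 0.049). Without Netherlands replicate 2 the difference was -0.81 ± 1.27. That library, the shallowest with 6969673 counts, also set apart LysE at 22.2 CPM and LysC at 13.1 CPM, gut lysozyme genes that were at 0.0649 to 2.41 and 0.0649 to 2.45 CPM elsewhere. Both belong to a cluster of similar copies, and how the reads divide among them is uncertain. CG32718 is among 12 genes that were high in virgins of the Zimbabwe line and low in Beijing virgins. Summed over these 12, Netherlands replicate 2 stood at 16.8% of the Zimbabwe virgin level and the other 14 libraries at 0.545% to 1.8%. Without CG32718 itself the other 11 genes stood at 17.7% there and at 0.913% to 2.63% in the other 14. Netherlands replicate 2 was also the highest for 12 genes chosen in the same way for the Tasmania line, at 7.9% against 1.56% to 3.04%. The Netherlands line, that of its mates, had 1 such gene, CG10154, which stood at 0.756% in that library and was highest in Tasmania replicate 1 at 2.73%. For 12 such genes of the Ithaca line it stood at 7.56% and Zimbabwe replicate 1 at 10.7%, with 1.59% to 5.77% in the other 13. The sets share genes: CG13032 is in those of Zimbabwe and Tasmania, and Dhc98D in those of Zimbabwe and Ithaca. The same library was the highest of the 15 for 26 of 29 digestive serine protease genes, where it was highest for 15.2% of all genes; their sum was 12800 CPM there and 3310 to 8910 CPM in the other 14. The part of these features in the CG32718 result was not tested beyond leaving the library out.

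With Beijing males no gene passed, but Beijing x Beijing replicate 2 had 11 genes (0.0913% of genes) at least 4-fold below every other library. These included the major chorion genes Cp38, at 54.5 CPM against 529 to 5450 CPM, and Cp36, at 37.9 against 312 to 2920 CPM. The eggshell genes yellow-g and yellow-g2 were at 5.47 and 4.48 CPM against at least 42.6 and 30.5 CPM. Chorion genes are transcribed by follicle cells in a short window late in egg formation. The 26 tested eggshell genes summed to 3730 CPM in that library, the lowest of the 15, and to 19800 CPM in Beijing x Tasmania replicate 1, the highest, with virgins at 5310 to 9120 CPM. None of the 26 passed for any male line. Their median log2 difference was 0.82 for Tasmania males, 0.29 for Netherlands males, and -0.38, -0.37 and -0.16 for Ithaca, Zimbabwe and Beijing males. The median for Tasmania males was -0.05 without Tasmania replicate 1, and that for Beijing males was -0.06 without Beijing replicate 2. The late chorion gene Cp15 ranged from 50.7 to 4410 CPM over the 15 libraries, with 4410, 67.8 and 51.1 CPM in the 3 Zimbabwe libraries alone.

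Yolk protein genes varied far less. Yp1 was at 6980, 8540 and 10700 CPM with Beijing males, 9930, 11100 and 7690 with Ithaca males, 13300, 12700 and 9500 with Netherlands males, 9250, 11100 and 6600 with Tasmania males, and 9460, 9800 and 7020 with Zimbabwe males. Virgins were at 8650 to 10900 CPM, inside that range. The 4 tested genes of yolk and yolk uptake gave 0 calls.

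With Tasmania males 3 genes passed, and for each of them the 3 Tasmania libraries differed widely among themselves. The 3 genes were CG31091, a predicted lipase gene, CG34411, named Lgr4 in the current annotation and encoding a leucine-rich repeat G protein-coupled receptor, and CG11211, a predicted C-type lectin gene. CG31091 had 2.32, 0.0649 and 2.10 CPM with Tasmania males. It had 0.0685, 0 and 0.636 CPM with Beijing males, 0 in all 3 Ithaca libraries, 0, 0.156 and 0 with Netherlands males and 0, 1.2 and 0 with Zimbabwe males. Tasmania replicates 1 and 3 were the highest of the 15 and replicate 2 lay among the other crosses. Virgin replicates 1 to 3 had 0.992, 2.13 and 0.0496 CPM, so 1 virgin library was as high as the Tasmania ones. The log2 difference was 4.38 ± 0.85 (adjusted p = 0.0165), a size that depends on the prior count because of the libraries at 0.

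CG34411 had 6.02, 1.23 and 7.99 CPM with Tasmania males and 1.02 to 4.39 CPM in the other 12 libraries, with Beijing x Zimbabwe replicate 2 at 4.39 and Beijing x Beijing replicate 1 at 4.18 CPM. Its log2 difference was 1.44 ± 0.30 (adjusted p = 0.0374). CG11211 had 4.51, 0.909 and 1.26 CPM against 0.0258 to 1.34 CPM (2.50 ± 0.52, adjusted p = 0.0374). For both genes the groups overlapped, and virgin replicates 1 and 2 were high too (6.51 and 7.86 CPM, and 1.92 and 2.09 CPM). Without Tasmania replicate 1 none of the 3 passed: the log2 differences were 3.92 ± 0.98 for CG31091, 1.30 ± 0.35 for CG34411 and 1.47 ± 0.65 for CG11211. Without Tasmania replicate 3, CG31091 (adjusted p = 0.177) and CG34411 (0.984) did not pass either. Leaving out Ithaca replicate 1 ended all 3 calls as well (adjusted p = 0.216 for CG31091, 0.33 for CG34411 and 0.304 for CG11211). So did leaving out Netherlands replicate 1 (0.0723, 0.0965 and 0.174). The adjustment runs over all male line contrasts together, so a call can end when calls of another line do. Without Netherlands replicate 1, however, Ithaca males still had 13 calls, Netherlands males 3 and Zimbabwe males 1. An ended call alone is thus no measure of change in the gene's own difference, and the part of the shared adjustment was not tested. In females of the 4 other lines Tasmania males gave 0.22 ± 0.35, 0.08 ± 0.17 and 0.17 ± 0.23 for the same genes.

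More genes of this kind passed once Zimbabwe replicate 1 and Netherlands replicate 2 were left out. Ithaca replicate 2, with the lowest median correlation (0.9684) and the steepest length slope (-0.416), was kept in that repeat. The joint test then called 15 of 12042 genes (0.125%), and Tasmania males had 10 genes higher (0.083%): Cyp4p2, CG11211, CG8329, Odc2, CG31091, CG3088, CG31661, CG8343, CG34411 and CG7829. CG8329, CG3088 and CG7829 encode predicted serine proteases of the trypsin family, CG31661 a predicted aspartic protease and CG8343 a predicted C-type lectin. Cyp4p2 encodes a cytochrome P450 and Odc2 an ornithine decarboxylase, the first enzyme of polyamine synthesis. CG8343 had 34.2, 13.8 and 17.5 CPM with Tasmania males, 3.43, 6.46 and 13.2 with Beijing males, 2.78, 11.6 and 1.15 with Ithaca males, 1.65, 16.3 and 0.308 with Netherlands males and 5.87, 19.9 and 3.03 with Zimbabwe males. Tasmania replicate 1 was the highest, and the other Tasmania libraries stood among the high libraries of other crosses. CG8329 had 15.6, 4.16 and 7.09 CPM against 0.411 to 6.72 CPM, and CG3088 had 22.3, 6.75 and 11.5 CPM against 0.103 to 12.8 CPM. CG31661 was at 38.7 CPM in Tasmania replicate 1 and at 40.6 CPM in Zimbabwe replicate 1, 1 of the libraries left out, beside 2.60 and 3.54 CPM in the other Tasmania libraries.

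Leaving out the 2 libraries raised the log2 difference of Cyp4p2 from 1.35 ± 0.53 to 2.52 ± 0.43 (adjusted p = 0.00272), since Netherlands replicate 2 had the highest level, 4.85 CPM. For CG8329 it went from 1.96 ± 0.43 to 2.20 ± 0.43, and for CG8343 from 1.70 ± 0.48 to 2.16 ± 0.45. Of the 10 genes, Tasmania replicate 1 was the highest or second of the 15 libraries in 10, replicate 3 was among the 5 highest in 9 and replicate 2 among the 5 highest in 2. All 3 Tasmania libraries lay above all 10 libraries left of the other crosses for 1 of the 10 genes, Odc2. Beijing x Zimbabwe replicate 2 was among the 4 highest in 7 of the 10. Virgin replicates 1 and 2 both lay above the median of the 10 libraries left of the other crosses in 9 of the 10, and at 18.9 and 13.1 CPM for CG8343. The 10 genes were called as higher with Tasmania males, so the ranks of the Tasmania libraries partly follow from that choice. Shares over all genes were not computed for these counts, which describe the 10 genes only. The summed digestive serine proteases, the midgut marker list, were at 4690, 6120 and 6580 CPM in the Tasmania libraries, inside the range of the other crosses, so the 10 genes did not go with the list as a whole. Over all 15 libraries CG11211 ranked most like CG8343 (Spearman's rho 0.893) and CG3088 (0.882), and CG31091 like CG9676 (0.852). These rhos describe 15 libraries that share a female line.

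**Figure D3:**
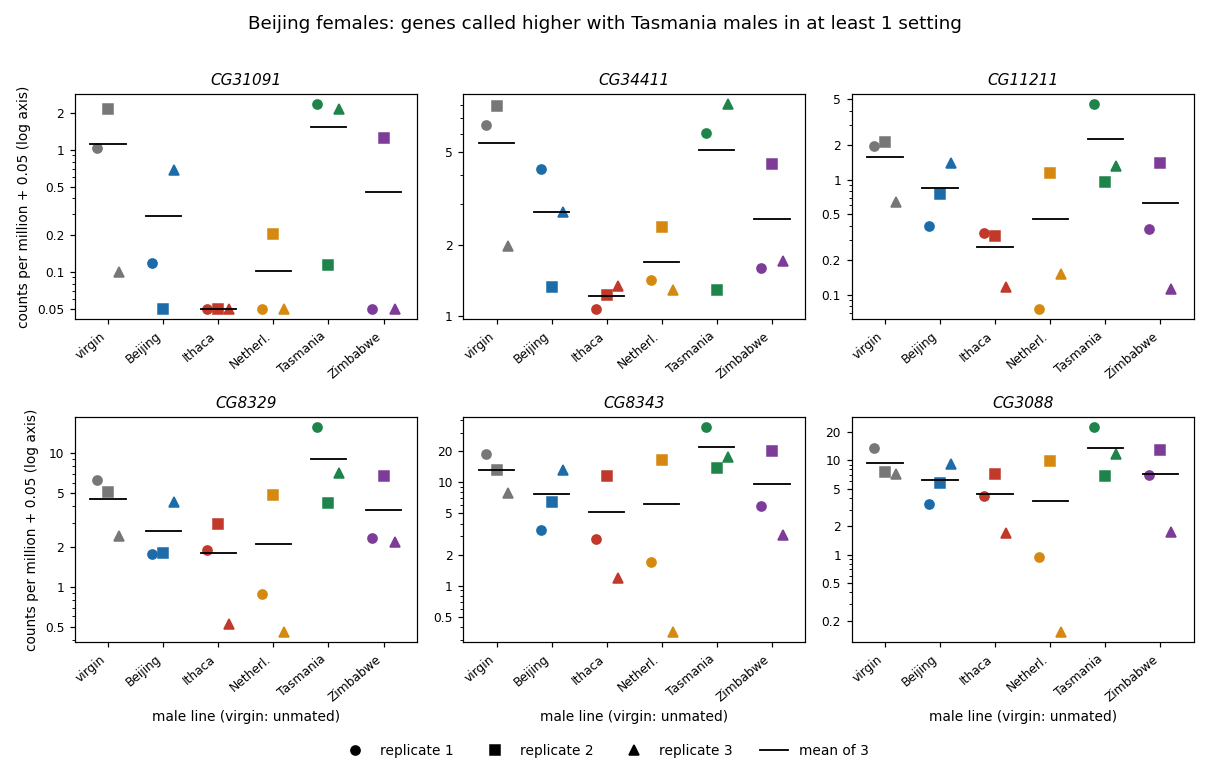
CPM plus 0.05 (log axis) of 6 genes in each library of Beijing females; symbols mark the replicate and black lines the mean of 3 libraries. Tasmania replicate 1 or 3 is the highest mated library in each panel (for CG34411, 6.02 and 7.99 CPM), Tasmania replicate 2 lies lower, and virgin and Zimbabwe replicate 2 libraries reach into the same range.

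The count of called genes depended on single libraries. Leaving out 1 of the 15 mated libraries at a time gave 0 to 19 genes in the joint test. The 0 came without Ithaca replicate 1 and the 19 (0.158% of 12039 genes) without Netherlands replicate 2. Genes higher with Ithaca males numbered 0 without Ithaca replicate 1 and 10 to 30 without any other single library. Genes higher with Tasmania males numbered 0 without Ithaca replicate 1, Netherlands replicate 1 or Tasmania replicate 1, and 11 without Netherlands replicate 2 (0.0914%). The count for a male line can also move with the calls of the other lines, since the adjustment is shared among them. Without Zimbabwe replicate 1 alone, the joint test called 3, and without Ithaca replicate 1, Zimbabwe replicate 1 and Netherlands replicate 2 together it called 1 of 12037 (0.00831%), Cyp4p2 (adjusted p = 0.0475). Tasmania males then had 2 genes higher (0.0166%), CG11211 (log2 difference 3.05 ± 0.57, adjusted p = 0.0431) and Cyp4p2 (2.51 ± 0.44, adjusted p = 0.0252), and Ithaca males 0.

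**Figure D4:**
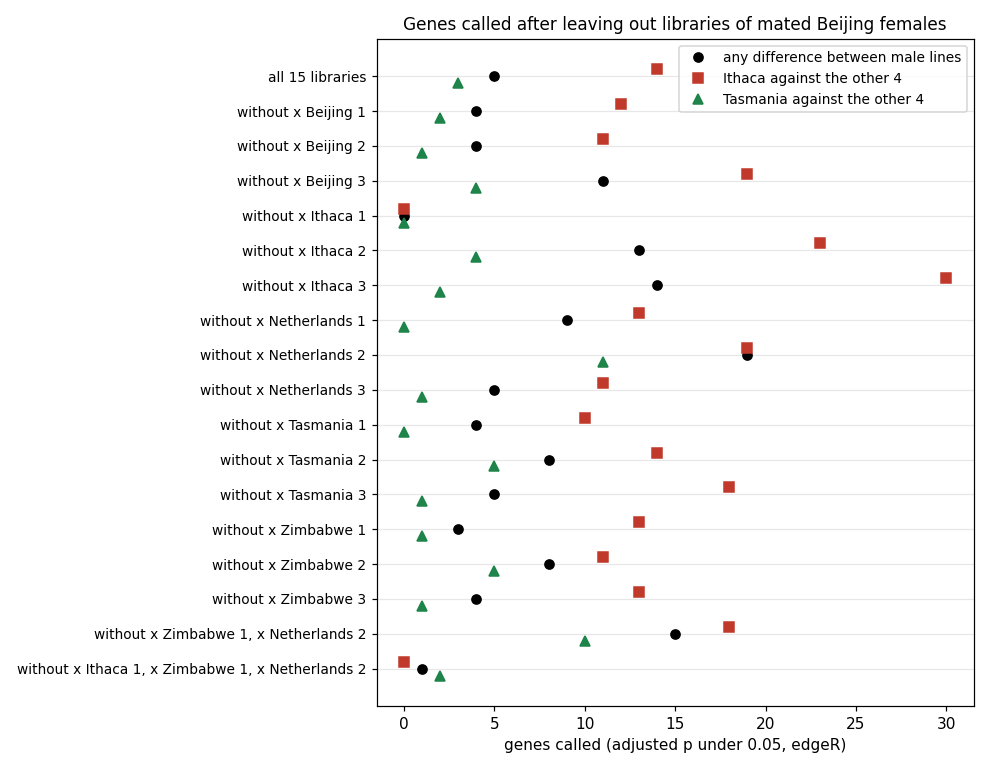
Genes called in edgeR (x axis) with all 15 libraries of mated Beijing females and after leaving out the libraries named on the y axis, for the joint test and for Ithaca and Tasmania males against the other 4. Without Ithaca replicate 1 all 3 counts are 0, and without Netherlands replicate 2 they are 19, 19 and 11.

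The comparisons of single pairs of male lines gave no call with all libraries. In the 10 pairwise comparisons, 0 of 120450 gene and pair combinations passed in edgeR after adjustment over all of them (0%), 5240 had an unadjusted p under 0.05, and DESeq2 called 98. The smallest adjusted p was 0.0626, for CG34136 between Ithaca and Beijing males (log2 difference 2.42) and between Tasmania and Ithaca males (-2.46). Without Zimbabwe replicate 1 and Netherlands replicate 2, 4 combinations passed. CG34136 passed in the same 2 pairs, and CG3088 and Cyp4p2 passed between Tasmania and Netherlands males, with log2 differences of 4.32 and 4.53. In that setting CG3088 was also the only gene lower with a male line than with the other 4, at -3.40 for Netherlands males; it was at 0.904 and 0.103 CPM in the Netherlands libraries that were left.

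Among genes listed for their roles, 21 of 22 lists had 0 members called for any male line, and the joint test, which called 0.0415% of all genes, called 0 members of all 22. Without Zimbabwe replicate 1 and Netherlands replicate 2 it called 1 member, the cytochrome P450 gene Cyp4p2 (adjusted p = 0.00542). Where a list's sum was extreme it was often so in the same libraries, with the highest sum in Netherlands replicate 2 for 9 lists, in Ithaca replicate 2 for 3 and in Tasmania replicate 1 for 3. Cytosolic ribosomal proteins (91 tested) had median log2 differences of 0.41 for Ithaca and 0.35 for Netherlands males, and -0.32 and -0.34 for Tasmania and Zimbabwe males. Without Zimbabwe replicate 1 and Netherlands replicate 2 the Netherlands median was 0.03, and without Ithaca replicate 2 the Ithaca median was -0.07. Their sum was 252000 CPM in Ithaca replicate 2, 217000 CPM in Netherlands replicate 2 and 94100 to 157000 CPM in the other 13, and these were the libraries with the steepest length slopes. RpL39 had the smallest p of that list (adjusted p = 0.999), at 479 to 1270 CPM. Of 79 cytochrome P450 genes, 34 glutathione S-transferases, 33 odorant-binding proteins, 30 genes of juvenile hormone and ecdysone, 33 of synapse and neuron, 26 of the sarcomere, 19 of carbohydrate digestion, 17 of heat shock and chaperones, 12 of fat body and 11 of the clock, 0 passed for any male line with all libraries, where at most 0.116% of all genes passed for a line. Cyp4p2 passed for Tasmania males in the repeats without these libraries, as given above. Members with the smallest p included Cyp28a5, with means of 80.5 CPM for Netherlands males and 49.9 to 57.7 CPM for the other 4 (adjusted p = 0.406), and GstE4, with 1.49 ± 0.449 CPM (SD, n = 3) for Tasmania males and 2.40 to 3.91 CPM for the other 4 (adjusted p = 0.836).

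Unmated females gave the background for mating itself. Send1, a protease of the sperm storage organs, was lower in all 15 mated libraries than in all 3 virgin libraries. It was at 18.7, 9.39 and 10.4 CPM in virgins. It was at 2.19, 1.34 and 3.05 CPM with Beijing males, 1.83, 2.84 and 2.38 with Ithaca males, 2.69, 3.13 and 3.70 with Netherlands males, 2.63, 2.66 and 2.52 with Tasmania males and 3.51, 1.77 and 2.41 with Zimbabwe males. Send2, a related protease, was higher in all 15, at 56.1 to 182 CPM against 18.6 to 25.8 CPM in virgins, and so were CG17234, a predicted serine protease gene, at 34.4 to 138 against 17.7 to 28.4 CPM, and Cpr47Ef, a cuticle protein gene, at 16.9 to 36.0 against 7.72 to 12.2 CPM. Over all genes, 6 lay below in this way (0.0498%) and 15 above (0.125%). These genes were picked by the order of their libraries, and that order is no test of mating. The 5 crosses overlapped in each of these genes, and the joint test between male lines gave an adjusted p of 1 for Send1 and Send2. Of 16 genes listed for their mean change with mating over the whole series, a list chosen on these same libraries and so not independent evidence, 0 passed between male lines. The log2 change of Send1 against virgins ranged from -2.03 ± 0.71 with Netherlands males to -2.50 ± 0.70 with Beijing males. That of Send2 ranged from 1.84 ± 0.95 with Zimbabwe males to 2.63 ± 0.98 with Netherlands males. These contrasts share the same 3 virgin libraries. No single cross passed for either gene in edgeR's quasi-likelihood test (adjusted p = 0.593 to 1 for Send1 and 1 for Send2).

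**Figure D5:**
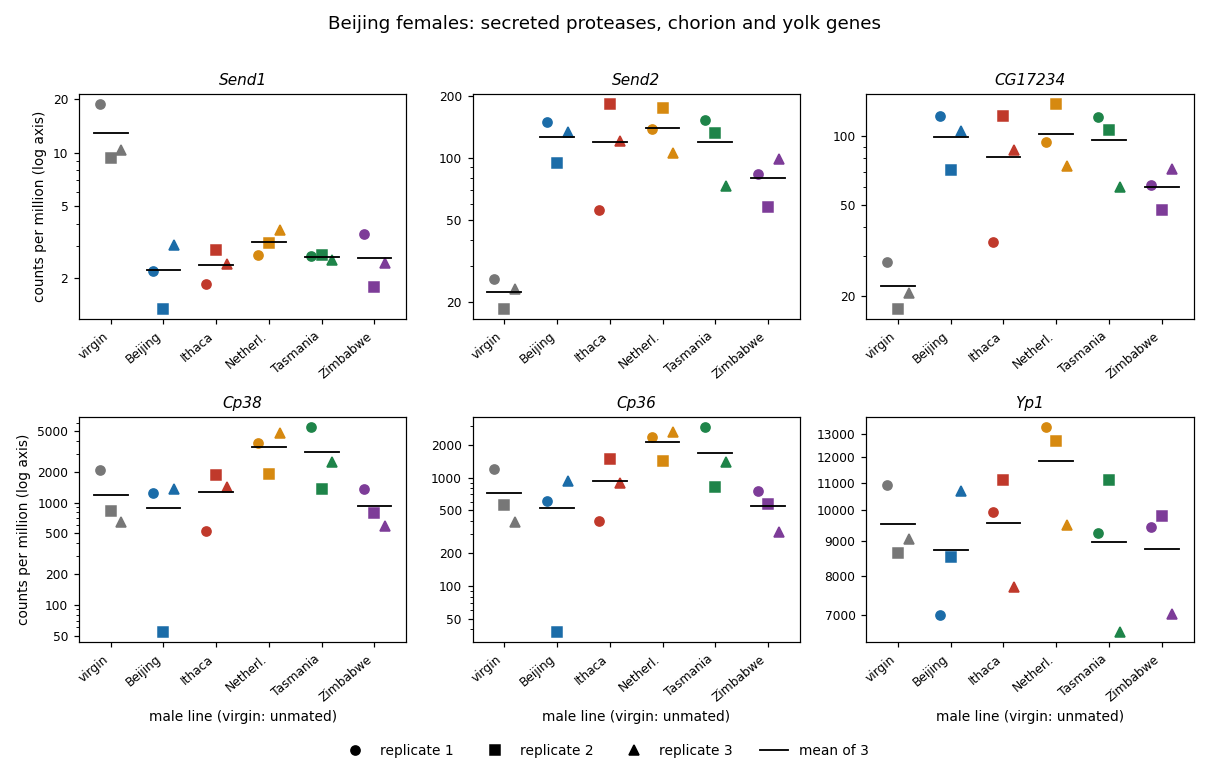
CPM (log axis) of 3 secreted protease genes, 2 chorion genes and a yolk protein gene in each library of Beijing females; symbols mark the replicate and black lines the mean of 3 libraries. Send1 lies below and Send2 above the virgins in all 15 mated libraries, while Beijing replicate 2 has the lowest Cp38 (54.5 CPM) and Cp36 (37.9 CPM).

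Against virgins each cross gave few calls. Ithaca-mated females had 2 (0.0166%): l(2)efl, which encodes a small heat shock protein, rose, and a predicted ABC transporter gene fell. The level of l(2)efl was 72.7, 50.4 and 74.2 CPM in virgins and 189, 185 and 116 CPM with Ithaca males (log2 change 1.32 ± 0.24, adjusted p = 0.0484). It was at 95.3, 111 and 115 CPM with Beijing males, 113, 199 and 134 with Netherlands males, 109, 127 and 82.4 with Tasmania males and 86.4, 98.9 and 89.7 with Zimbabwe males. All 15 mated libraries lay above the 3 virgin ones, and the crosses overlapped with each other. The 17 tested heat shock and chaperone genes, l(2)efl among them, gave no call between male lines. For the transporter gene virgins had 4.47, 5.67 and 1.04 CPM and Ithaca-mated females 0.585, 0.969 and 0.951 CPM (-2.15 ± 0.41, adjusted p = 0.0484). Virgin replicate 3 was near the mated level. Both calls ended when certain single libraries were left out. The call of l(2)efl was lost without virgin replicate 1 (adjusted p = 0.157) or 2 (1), or Ithaca replicate 1 (0.259) or 2 (0.0909). That of the transporter gene was lost without any single Ithaca library (0.354, 0.0827 and 0.0805) and without virgin replicate 1 (0.195) or 2 (1). Tasmania-mated females had 1 call (0.0083%), CG4174, with 0 reads in 3 libraries and 0.496, 0.460 and 0.297 CPM in virgins (adjusted p = 0.0484). Against a floor of 3 counts over the group it was at least 6.69-fold lower with Tasmania males. Its call was lost without any single Tasmania library (0.164, 0.149 and 0.165), without virgin replicate 1 (0.157) or 2 (0.518), and in DESeq2 (0.0503). Crosses with Beijing, Netherlands and Zimbabwe males had 0 calls (0%) in edgeR, with 135, 536 and 175 genes at an unadjusted p under 0.05 and 5, 11 and 5 called by DESeq2.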

How the data were processed

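Whole-female RNA was sequenced as single-end 100 bp reads on the HiSeq 2000 after TruSeq RNA v2 preparation, per the labels' protocols. The authors deposited raw read counts per gene. FastQC, Trimmomatic, TopHat2, HTSeq and the dm3 build are named in the submitters' processing notes; versions, annotation release and strand setting are not given in the sources used here. Of 14522 rows, 8 without a gene symbol (0.122% of counts) were left out. Of 90 labelled samples, 89 had a column, and 1 (Ithaca x Zimbabwe replicate 2) was not analysed here. All 89 libraries were fitted with 30 group means in edgeR 4.0.16 (quasi-likelihood test, filterByExpr, TMM scaling, robust; limma 3.58.1, R 4.3.3), with Benjamini-Hochberg adjustment, over 5 contrasts or 10 pairs jointly. DESeq2 1.42.0 was an alternative. Symbols matched current names for 97.1% of genes. On simulated counts for 12045 genes, 66% of 2-fold and 97% of 4-fold changes were recovered by the joint test, with 7 false among 170 calls. The changes were planted in Beijing x Zimbabwe only and in genes above a minimum level, and no simulated library was made to stand apart. These rates therefore do not carry over to genes near the floor or to calls that rest on 1 library. Genes were named by smallest p, list membership and libraries standing apart, and others were chosen after their values were seen. Cyp4p2, CG8343 and CG4174 are among the latter. The comparison and the 22 lists were chosen with earlier results of these data known, and the libraries were then taken by their labels.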

Additional observations from a re-analysis of the deposited data

Results flagged for a closer look

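CG34136 is listed because the effect of the male line differed between Beijing females and females of the other 4 lines, in a test of that difference over all genes (edgeR's quasi-likelihood F test, Benjamini-Hochberg adjusted p = 0.00216). Beijing x Ithaca replicates 1 to 3 had 50.5, 7.75 and 3.12 CPM, and without replicate 1 no gene passed that test.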

How the results depend on the processing

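With all libraries the joint test called 5 genes, the contrasts of each male line with the other 4 called 19 in all, the pairs 0, the comparison with other female lines 1, and the contrasts with virgins 3. DESeq2 size factors and no filter on low counts left the first 4 counts as they were. DESeq2's own test gave 22, 49, 98, 13 and 54. In a fit of the 18 Beijing libraries alone the joint test and the male line contrasts gave 0 each and the virgin contrasts 5. Without Zimbabwe replicate 1 and Netherlands replicate 2 the counts were 15, 29, 4, 2 and 6. The next 3 settings were chosen after seeing the data. Leaving out Ithaca replicate 1 as well gave 1, 2 and 0 in the joint test, the male line contrasts and the comparison with other females. Without Ithaca and Netherlands replicate 2 the counts were 26, 40, 13, 14 and 11. Without all 4 of these libraries the male line contrasts gave 5, the pairs 2 and the comparison with other females 0. When the slope on gene length entered as a covariate, the joint test gave 7 calls, Zimbabwe males 3 and the virgin contrasts 1, and the calls of CG32718 (adjusted p = 0.323), IM23 (0.0512) and CG34411 (0.0534) for a male line ended. Leaving out 1 replicate at a time gave 0 to 19 in the joint test, 0 to 33 for the male line contrasts, 0 to 7 for pairs, 0 to 9 against other females and 0 to 13 against virgins. In 31 settings edin kept its call in the joint test in 25 and CG34136 in 26. Both calls ended in every setting without Ithaca replicate 1 (without it alone, adjusted p = 0.804 for edin and 0.964 for CG34136). They also ended in the fit of the 18 Beijing libraries alone (0.842 for each). Most of the other settings left out a library of another group or cross.

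The labels do not say whether replicate numbers pair the samples. Over 45 same-numbered pairs of libraries the median correlation of deviations was 0.0674 with 21 over 0.1. Over 90 pairs with different numbers it was -0.023 with 22 over 0.1. Of 18 libraries, 12 were closest to their own number, a hint from the data and not the design. What the numbers share was not tested. With the number as a replicate block the pairs gave 6 calls and the virgin contrasts 11; all 6, and 5 of the 11, were CG31010, a gene at 0 to 0.326 CPM. The joint test then no longer called edin (adjusted p = 0.128), CG6614 (0.331) or CG33462 (0.292), and calls for Ithaca males went from 14 to 10, of which 8 were among the 14 and the others were CG31010 (lower) and Spn27A. CG31010 was also 1 of the 4 joint calls and the only call for each of the other 4 male lines. CG11211 (0.0678), CG31091 (0.0523) and CG34411 (0.0606) for Tasmania males, CG6614 (0.0606) for Zimbabwe males, CG32718 (0.151) for Netherlands males and CG4174 (0.0536) against virgins did not pass in that fit.

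The log2 difference changed sign for 5 genes. CG10814 was at -0.00382 without Ithaca replicate 1, Zimbabwe replicate 1 and Netherlands replicate 2, at -0.36 without replicate 1 of every group and at -0.26 without Ithaca replicate 1. Tep2 was at -0.10, -0.14 and -0.12 in the same settings. Without Ithaca replicates 1 and 2, Zimbabwe replicate 1 and Netherlands replicate 2, CG34136 was at -0.32 and CR43920 at -0.21. CG32718 was at -0.93 to -0.81 in settings without Netherlands replicate 2, among them -0.82 without Ithaca replicate 2 as well and -0.88 without replicate 2 of every group. Over the settings that leave out 1 replicate, the highest values were 3.88 for CG10814, 2.33 for Tep2 and 4.82 for CG32718. The cause of shifts under the other settings was not tested.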
